A study of Mus musculus with 7 samples.

Results

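The genes described here are 9 genes of the epidermis, the outer layer of skin: Krt5, Krt14, Krt1, Krt10, Krt15, Dsg3, Trp63, Krtdap and Sfn. They were taken by name as a fixed list, and all 9 were found among the 56854 gene identifiers held by every count file. The libraries were made from messenger RNA of whole shoulder joints, 1 library per mouse, taken 2 weeks after surgery on the left shoulder that repaired the supraspinatus tendon, a tendon of the rotator cuff. The groups were wild-type mice (n = 3) and mice lacking Tenascin C, an extracellular matrix glycoprotein (Tnc-/-, n = 4); both had the repair, so no unoperated shoulder entered the comparison. The strain, age and sex of the mice, and the design of the Tnc allele, were not given in the sources used here. The shoulder joint itself is not lined by epidermis, and the first comparison is whether the genes that define that tissue were counted at all.

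The epidermis is a stratified epithelium renewed from a basal layer of keratinocytes. Basal keratinocytes make the keratin pair Krt5 and Krt14, and cells that leave the basal layer switch to the pair Krt1 and Krt10, where a type I keratin (Krt14, Krt10, Krt15) always polymerises with a type II keratin (Krt5, Krt1). These keratins are among the most abundant messenger RNAs of skin. Trp63 encodes p63, a transcription factor required for stratified epithelia, Dsg3 a cadherin of the desmosomes that join keratinocytes, Krtdap a small secreted protein of differentiating keratinocytes, and Sfn the 14-3-3 sigma protein of stratified epithelia.

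The libraries held 13.5 to 28.2 M counts over genes (M, mega), and 3 counts, taken here as the detection floor, corresponded to 0.106 to 0.223 CPM, counts scaled to a total of 1 M per library. Tnc itself was counted 8137, 4394 and 5386 times in wild-type libraries 1 to 3 and 902, 698, 712 and 1051 times in Tnc-/- libraries 1 to 4. It was lower in every Tnc-/- library (log2 fold change -3.08, SE 0.21, edgeR adjusted p = 2.8e-04). Wild-type libraries 2 and 3 stood apart from the rest. For 2026 smell, pheromone and trace-amine receptor genes, which have no known role in a joint, the summed level was 1564 and 1113 CPM there. It was 89.8 CPM in wild-type library 1 and 33.3 to 41.5 CPM in the Tnc-/- libraries. This receptor level did not overlap between the genotypes, so where it is used below as a covariate it is confounded with genotype. The files of the genotypes also came from different counting runs, since 126 identifiers were listed only for wild type and 87 only for Tnc-/-; run and genotype therefore cannot be told apart. Joint tissue was well represented, with summed levels of 4651 to 5593 CPM in wild type and 3625 to 6374 CPM in Tnc-/- for 8 tendon genes, and of 23855 to 27683 CPM and 28539 to 41023 CPM for 8 skeletal muscle genes.

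The keratins of the list are related in sequence, which bears on how reads can be assigned to them. The start of the coiled-coil rod is shown for the type I keratins, from the longest coding transcript of each gene in GENCODE M21 on assembly GRCm38, read 5′ to 3′ on the minus strand. Capitals mark bases that differ from Krt14.
Krt14 (chr11:100207043-100207101, exon 1, coding): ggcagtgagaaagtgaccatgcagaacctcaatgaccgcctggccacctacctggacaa
Krt15 (chr11:100135515-100135573, exon 1, coding): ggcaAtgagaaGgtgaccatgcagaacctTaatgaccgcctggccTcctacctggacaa
Krt10 (chr11:99388878-99388936, exon 1, coding): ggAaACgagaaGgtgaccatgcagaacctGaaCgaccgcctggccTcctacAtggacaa
Over these windows Krt15 differed from Krt14 at 4 of 59 bases (93.2% identity) and Krt10 at 8 (86.4%).

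Of the 5 keratins on the list, 4 had few or no counts in all 7 libraries. Krt15, a keratin of basal cells and of the hair follicle bulge, had a count of 0 in every library. Krt5 had 0 counts in all 3 wild-type libraries and 0, 2, 0 and 2 counts in Tnc-/- libraries 1 to 4. Krt1 had 0 counts in all 3 wild-type libraries and 3, 5, 0 and 2 counts in Tnc-/- libraries 1 to 4. Krt14 had 13 counts in wild-type library 1, or 0.703 CPM, and 0 in the other 6 libraries. Summed, Krt5, Krt14, Krt1 and Krt15 reached 0.703, 0 and 0 CPM in wild type and 0.106, 0.358, 0 and 0.191 CPM in Tnc-/-. None of the 4 passed the filter on low counts, and at this depth no difference between the genotypes was detectable for any of them. Because of these low counts the 9 genes are not taken here as a measure of carried-over skin, and they are called by their list. Whether skin was carried over was not tested.

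**Figure D1:**
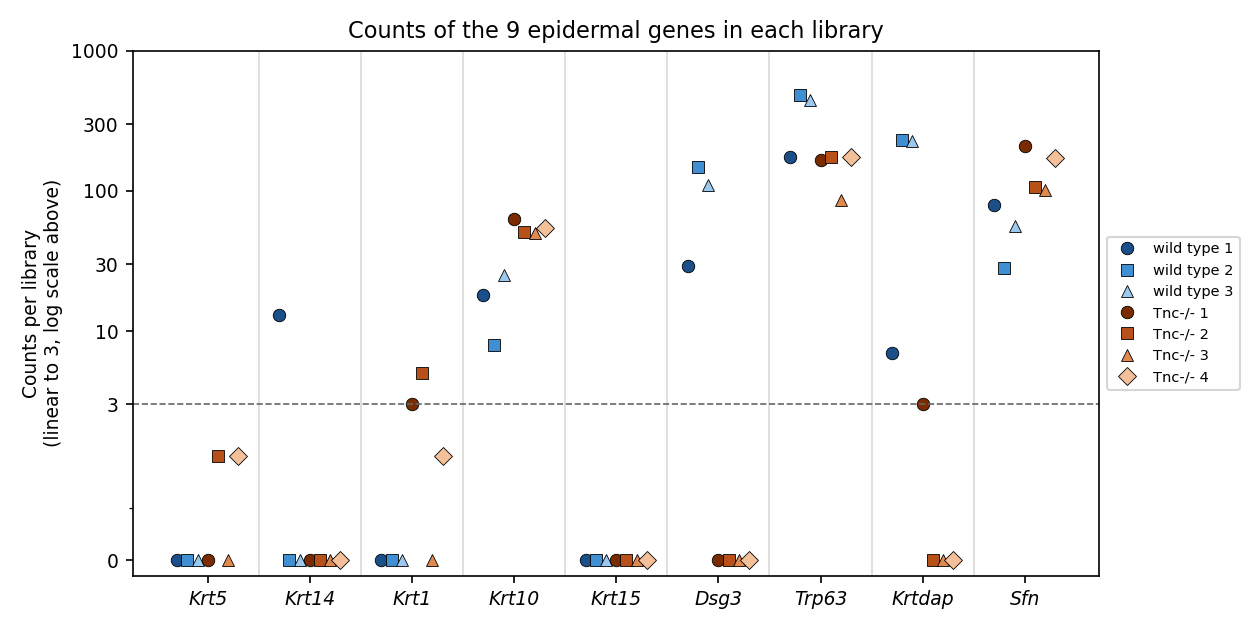
Raw counts of the 9 epidermal genes (x axis, 1 position per gene) in each of the 7 libraries (y axis, reads per library, linear up to 3 and logarithmic above), with 1 point per library coloured by genotype and a dashed line at 3 counts. Krt5, Krt14, Krt1 and Krt15 lie at or near 0 apart from 13 counts of Krt14 in wild-type library 1, Krt10, Sfn and Trp63 were counted in every library, and Dsg3 lies at 0 in all 4 Tnc-/- libraries.

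How the authors counted a read that fits 2 genes equally well was not given in the sources used here. Stretches of at least 50 bases that occur word for word in another transcript covered 39.9% of the Krt14 transcript, with a longest run of 134 bases shared with Krt16. They covered 18.7% of Krt5, shared in part with Krt6a, and 6.41% of Krt15, with a longest run of 59 bases shared with Krt25. Krt1 had no such stretch, its longest run being 31 bases, and its counts still lay between 0 and 5. Of the partners, Krt25 had 0, 77 and 111 counts in wild-type libraries 1 to 3. In Tnc-/- libraries 1 to 4 Krt25 had 0, 0, 4 and 1 counts. The other related keratins looked up were low. Krt6a had 8 counts in wild-type library 3 alone, Krt16 had 14 counts in Tnc-/- library 1 alone, and Krt6b and Krt17 had 0 in every library. Counts of 0 also occurred for genes that joint tissue uses. Scx, a tendon transcription factor, and Acp5, an osteoclast phosphatase, were at 0 in all 7 libraries, and each overlaps 1 gene on the opposite strand in GENCODE M21 (Bop1 and 6530413G14Rik). Krt14, Krt1 and Krt15 overlap no other gene there, and Krt5 overlaps 1 short gene of 129 bases. Whether overlap bears on any of these counts of 0 was not tested.

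Krt10, the suprabasal type I keratin, was counted in every library although its partner Krt1 was not. Its level was 0.973, 0.594 and 1.72 CPM in wild type 1 to 3 and 2.23, 2.61, 2.60 and 2.58 CPM in Tnc-/- libraries 1 to 4. Every Tnc-/- library was above every wild-type library, on 8 to 25 counts in wild type and 50 to 63 counts in Tnc-/-. The means were 1.10 ± 0.573 CPM (SD, n = 3) and 2.51 ± 0.181 CPM (SD, n = 4), and the log2 fold change of 1.42 (SE 0.54) did not pass the test (edgeR adjusted p = 0.0776). The call depended on the tool and on 1 library, with an adjusted p of 0.0259 in DESeq2 and of 0.0428 in edgeR without wild-type library 1. Krt10 overlaps the antisense gene Gm11940, which had 0 counts in every library, and its longest shared run, 94 bases, is with that gene on the opposite strand, so reads of that stretch cannot be assigned without strand.

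Sfn, a 14-3-3 adaptor protein of stratified epithelia that is induced by p53, followed the same order of groups. Its level was 4.27, 2.08 and 3.85 CPM in wild type 1 to 3 and 7.45, 5.48, 5.25 and 8.22 CPM in Tnc-/- libraries 1 to 4. The groups did not overlap here either, with 28 to 79 counts in wild type and 101 to 210 counts in Tnc-/-. The means were 3.40 ± 1.16 CPM (SD, n = 3) and 6.60 ± 1.46 CPM (SD, n = 4), and the log2 fold change of 1.16 (SE 0.43) did not pass the test (edgeR adjusted p = 0.0714). It passed in DESeq2 (adjusted p = 0.0218) and in edgeR without wild-type library 1 (adjusted p = 0.00488), and it was 0.42 (adjusted p = 0.790) with the receptor level as a covariate. Per kilobase of exon, Sfn was above Krt10 in every library, at 1.29 to 2.65 against 0.281 to 0.814 CPM per kb in wild type and 3.25 to 5.09 against 1.06 to 1.24 CPM per kb in Tnc-/-. Stretches of at least 50 bases that recur in any other transcript covered 29.4% of the Sfn transcript, the longest being 160 bases shared with Gm7850, which had 0 counts in every library, so the Sfn counts are uncertain there.

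Dsg3, the desmosomal cadherin of the lower epidermal layers, was counted in wild type only. It had 29, 149 and 111 counts in wild-type libraries 1 to 3, or 1.57, 11.1 and 7.64 CPM, and 0 counts in all 4 Tnc-/- libraries. Against a floor of 3 counts per Tnc-/- library the wild-type mean of 6.76 ± 4.81 CPM (SD, n = 3) was at least 48.3-fold higher, and wild-type library 1 alone was at least 11.2-fold higher. Dsg3 passed the test (edgeR adjusted p = 0.00740), having passed the low-count filter through the wild-type libraries alone. It also passed in all 18 alternative fits that could test it, with adjusted p-values up to 0.0397, including the fit without wild-type libraries 2 and 3 (adjusted p = 0.0307), which sets 29 counts in 1 library against 0, and the fit with the receptor level as a covariate (adjusted p = 0.0136). With 0 counts in every Tnc-/- library the direction was fixed in all of them. Beside the receptor genes, Dsg3 equalled 1.75, 0.708 and 0.687% of their summed CPM in wild-type libraries 1 to 3. Its level and the receptor level were both highest in wild-type libraries 2 and 3. The desmosomal plakoglobin gene Jup, which many tissues use, was 74.5 ± 13.2 CPM (SD, n = 3) in wild type and 89.7 ± 9.08 CPM (SD, n = 4) in Tnc-/- and did not pass the test (adjusted p = 0.0732).

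Krtdap, the keratinocyte differentiation-associated protein, was carried by 2 libraries. It had 7, 232 and 228 counts in wild-type libraries 1 to 3, or 0.378, 17.2 and 15.7 CPM, and 3, 0, 0 and 0 counts in Tnc-/- libraries 1 to 4. Wild-type libraries 2 and 3 were far above the other 5, and wild-type library 1 lay near the floor. Over the pooled counts of 467 and 3 the ratio of wild type to Tnc-/- was 294 (95% exact interval 100.08 to 1432, counting error only). Krtdap did not pass the low-count filter of the test. In fits that could test it the call varied, with a log2 fold change of -7.83 (adjusted p = 0.00762) with no filter and of -1.61 (adjusted p = 0.508) with the receptor level as a covariate. Krtdap is a short gene of 3.2 kb, and per kilobase of exon it stood at 25.4 and 23.1 CPM per kb in wild-type libraries 2 and 3. The level over the 2024 receptor genes of known exon length was 0.256 and 0.182 CPM per kb in the same libraries. Of all 2026 receptor genes, 1508 and 1526 had 0 counts there, so that level does not describe a counted receptor gene. Among 5967 coding genes with 3 counts or fewer in every Tnc-/- library, Krtdap ranked 5th per kilobase in wild-type libraries 2 and 3. Krtdap ranked 70th in wild-type library 1.

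Trp63, the p63 transcription factor, was counted in every library and was the third gene that was highest in wild-type libraries 2 and 3. Its level was 9.40, 35.9 and 30.4 CPM in wild type 1 to 3 and 5.92, 8.91, 4.47 and 8.36 CPM in Tnc-/- libraries 1 to 4. Every Tnc-/- library was below every wild-type library in plain CPM, but wild-type library 1 was close to the Tnc-/- libraries, and on the TMM scale its 9.34 CPM fell below the 9.69 CPM of Tnc-/- library 2. The means were 25.3 ± 14.0 CPM (SD, n = 3) and 6.92 ± 2.08 CPM (SD, n = 4), and Trp63 fell by 1.61 on the log2 scale (SE 0.43, edgeR adjusted p = 0.0240). The call rested on wild-type libraries 2 and 3. Without both, the log2 fold change was -0.33 (adjusted p = 0.606), and with the receptor level as a covariate it was 0.17 (adjusted p = 0.918), a reversed sign. It was also lost without wild-type library 2 (adjusted p = 0.0887) or 3 (0.0959), and without Tnc-/- library 1 (0.0686), 3 (0.0722) or 4 (0.0546), in limma voom (0.1102) and in DESeq2 with Bonferroni adjustment (1). Trp63 spans 208 kb, of which all but a small part is intron. Reads over introns were not measured, and whether gene span bears on the Trp63 level was not tested.

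**Figure D2:**
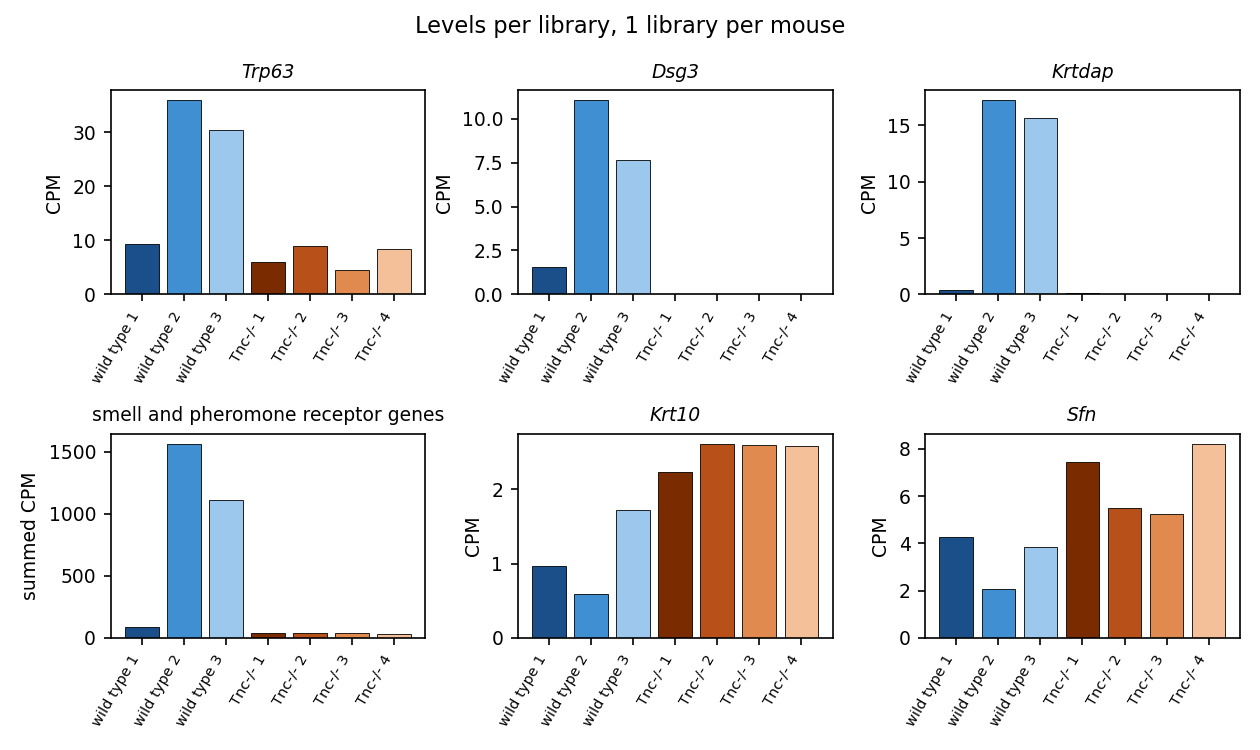
Levels in CPM (y axes, each starting at 0) in the 7 libraries (x axis, wild type 1 to 3 and Tnc-/- 1 to 4) of Trp63, Dsg3, Krtdap, the summed receptor genes, Krt10 and Sfn, 1 bar per library. Trp63, Dsg3, Krtdap and the receptor genes are highest in wild-type libraries 2 and 3, whereas Krt10 and Sfn are higher in every Tnc-/- library than in any wild-type library.

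Of the 9 genes, 4 passed the low-count filter (Krt10, Sfn, Dsg3 and Trp63), and 2 were called (edgeR adjusted p under 0.05), Dsg3 and Trp63, both lower in Tnc-/-. In the whole series 29.0% of the 17791 genes tested were called, 18.7% lower and 10.3% higher in Tnc-/-. That balance depended on the fit, with 707 higher and 266 lower in limma voom and 951 higher and 4541 lower with library totals in place of TMM. All 4 had groups that did not overlap in CPM, where 34.4% of tested genes had such groups, 24.1% lower and 10.4% higher in Tnc-/-. The number called depended on the fit. It was 5 in DESeq2 (2 higher, 3 lower) and in edgeR without wild-type library 1, and 1 in limma voom, without wild-type libraries 2 and 3, and in edgeR without any 1 of wild-type libraries 2 and 3 or Tnc-/- libraries 1, 3 and 4. Summed over the 9 genes, the level was 17.3, 66.9 and 59.3 CPM in wild type 1 to 3 and 15.8, 17.4, 12.3 and 19.3 CPM in Tnc-/- libraries 1 to 4. Wild-type libraries 2 and 3 carried the difference between the means of 47.8 ± 26.7 (SD, n = 3) and 16.2 ± 2.97 CPM (SD, n = 4). The share of genes highest in both of those libraries was 39.1% of all 29121 genes with a count, and 3 of the 8 listed genes with a count. In bulk tissue, fewer cells of a type and less RNA per cell cannot be told apart.

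**Figure D3:**
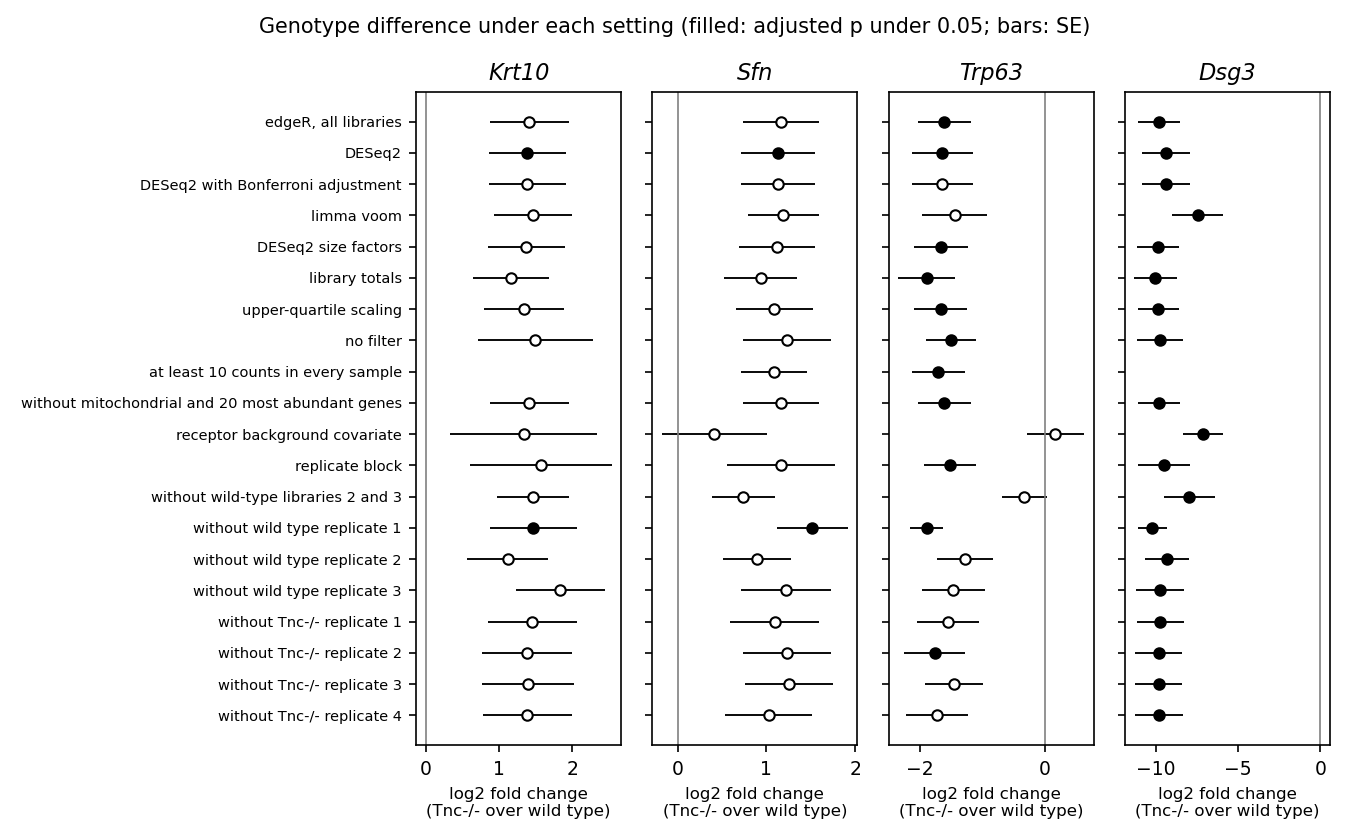
Log2 fold change of Tnc-/- over wild type (x axis, bars of 1 standard error) for Krt10, Sfn, Trp63 and Dsg3 under each processing alternative (y axis), with filled points where the adjusted p was under 0.05. Dsg3 is filled under every alternative that could test it, Trp63 under 10 of 19, and Krt10 and Sfn under 2 each, and Trp63 lies at 0.17 with the receptor level as a covariate.

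Many genes of the cornified layer, the outermost sheet built by dying keratinocytes, had no counts. Of 53 genes of the spinous and cornified layer, 20 were at 0 in all 7 libraries and 25 at 3 counts or fewer in every library. Among those at 0 were Krt77, Flg2, Hrnr, Rptn, Sbsn and Casp14. The list's summed level was 30.4 CPM in wild-type library 1, 162 and 125 CPM in the other 2, and 25.04 to 42.3 CPM in Tnc-/-. In the test, 6 of its 14 tested genes were called, 1 higher and 5 lower, with a median log2 fold change of -1.44. The count was 15 without wild-type library 1, 2 or 3 without any other single library, and 0 with the receptor level as a covariate. Over all genes tested 29.0% were called, 10.3% higher and 18.7% lower, with a median of -9.0e-04. Cers3, a ceramide synthase of the skin barrier, fell from 18.7 ± 17.5 (SD, n = 3) to 0.101 ± 0.117 CPM (SD, n = 4; adjusted p = 0.00730). Abca12, a lipid transporter of the barrier, fell from 10.01 ± 8.02 to 0.018 ± 0.035 CPM (adjusted p = 0.00670), and Aloxe3, a barrier lipoxygenase, from 9.53 ± 7.18 to 0.929 ± 0.357 CPM (adjusted p = 0.0178). Cers3 and Abca12 had 0 to 6 counts in each Tnc-/- library and so passed the low-count filter through the wild-type libraries alone, which fixed their direction. In wild-type library 1 Cers3, Abca12 and Aloxe3 were at 1.89, 0.757 and 1.30 CPM, far below libraries 2 and 3. Ly6d was 12.3 ± 3.80 and 14.5 ± 6.43 CPM and did not pass (adjusted p = 0.412). The gene called higher was Asprv1, a skin protease, named after its values were seen, at 3.13, 1.56 and 1.24 CPM in wild type and 4.92 to 6.03 CPM in Tnc-/-. That call was lost without any single library other than wild-type library 1, in limma voom and with the covariate.

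The 25 genes of the basal epidermis and its anchors summed to 1189 to 1257 CPM in wild type and 1598 to 1936 CPM in Tnc-/-, and 8 of 18 tested were called, 1 higher and 7 lower (median -0.67), where 29.0% of all genes were called, 10.3% higher and 18.7% lower. Of the 7, Tfap2a, Tfap2c and Ovol1 reached the low-count cutoff in no Tnc-/- library, so their direction was fixed. The basal count was 13 without wild-type library 1, 0 with the receptor level as a covariate and 2, both higher, without wild-type libraries 2 and 3. The sum was set by genes that many tissues express. Plec, which encodes the cytoskeletal linker plectin, rose from 409 ± 111 (SD, n = 3) to 1139 ± 127 CPM (SD, n = 4; log2 fold change 1.68, adjusted p = 0.00670), and Egfr, the epidermal growth factor receptor, fell from 106 ± 7.35 to 66.0 ± 4.29 CPM (adjusted p = 0.0225). Dst and Sdc1 did not pass (adjusted p = 0.191 and 0.661). Among 25 genes of desmosomes and epithelial adhesion, 6 of 18 tested were called, all lower (median -1.42), with 17 called without wild-type library 1, 3 without wild-type library 3 or Tnc-/- library 2, 3 or 4, and 0 with the receptor level as a covariate. Grhl2, a transcription factor of epithelia, fell from 35.3 ± 30.5 to 0.083 ± 0.098 CPM (adjusted p = 0.00711), and Cdh1, which encodes E-cadherin, from 29.2 ± 23.7 to 2.00 ± 1.05 CPM (adjusted p = 0.0185). Of the 6, Grhl2 and Esrp1 passed the filter through the wild-type libraries alone. Cdh1 had 1.78, 43.0 and 42.7 CPM in wild type 1 to 3 and 1.08 to 3.41 CPM in Tnc-/-, so wild-type library 1 lay within the Tnc-/- range.

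In the edgeR test with all libraries, calls in the lists of skin appendages and other skin cell types were all in the lower direction. Of all genes tested 18.7% were called lower and 29.0% in all, and the lists were not tested against that share. In the hair follicle list 4 of 12 tested genes fell (median -1.02), among them Lgr5, a marker of follicle stem cells, from 24.6 ± 15.1 to 5.14 ± 1.14 CPM (adjusted p = 0.0137), and Lef1, a Wnt pathway transcription factor, from 24.1 ± 15.7 to 5.58 ± 1.23 CPM (adjusted p = 0.0188). Sox9 and Dlx3 did not pass. In the sebaceous gland list 4 of 10 fell (median -1.49), among them the fatty acid hydroxylase Fa2h, from 19.6 ± 17.1 to 1.17 ± 0.354 CPM (adjusted p = 0.0104). Soat1, Cidea and Far2 did not pass (adjusted p = 0.955, 0.817 and 0.0832). The sebaceous count was 7 without wild-type library 1, 1 without any other single library and 0 with the covariate. In the melanocyte list 3 of 7 fell (median -0.66), among them the pigment gene Oca2, from 28.6 ± 23.6 to 0.120 ± 0.057 CPM (adjusted p = 0.00670), whereas Gpnmb, which macrophages also express, was 158 ± 72.0 and 148 ± 19.996 CPM (adjusted p = 0.837). In the list for Langerhans cells and dendritic epidermal T cells 2 of 3 tested fell (median -2.66). Skint5 fell from 56.7 ± 49.6 to 0.036 ± 0.072 CPM (adjusted p = 0.00670) and Epcam from 8.87 ± 7.19 to 1.16 ± 0.190 CPM (adjusted p = 0.0252). Skint3 was the other gene tested, so Cd207 and Il17a were not, and a change in those cell types was not measured. Epcam was also called in the adhesion list. Skint5, Oca2 and the hair gene Foxn1 passed the filter through the wild-type libraries alone. Without any single library other than wild-type library 1, the hair count was 1 to 3, the melanocyte count 1 or 2 and the Langerhans count 1. With the receptor level as a covariate each of these counts was 1. Without wild-type library 1 they were 10, 6 (1 of the 6 higher) and 3. In wild-type library 1 Lef1, at 7.19 CPM, and Epcam, at 1.19 CPM, lay within their Tnc-/- ranges. Those ranges were 4.59 to 7.38 and 0.922 to 1.383 CPM, so the falls of both genes lay in wild-type libraries 2 and 3. Fa2h, Oca2, Skint5 and Lgr5 were at 1.95, 2.11, 1.73 and 7.57 CPM in wild-type library 1, above every Tnc-/- library. They were far higher in wild-type libraries 2 and 3, at 20.9 to 36.0, 36.1 to 47.5, 70.3 to 98.1 and 29.5 to 36.6 CPM. For simple epithelium none of 10 tested genes was called by edgeR, with 0 at an unadjusted p under 0.05, and DESeq2 called 1, lower. In edgeR 2 were called, both lower, without wild-type library 1. Without Tnc-/- library 4 or with no filter 1 was called, lower. Without wild-type library 2 the 1 gene called was higher. In the list of skin fibroblasts and dermal papilla 2 of 10 fell, Corin and Prdm1, named after their values were seen. The fibroblast count was 4 with library totals, 3 (1 higher) without wild-type library 1, and 0 in limma voom and with the covariate. The list summed to 456 to 481 CPM in wild type and 319.5 to 389 CPM in Tnc-/-. Its most abundant gene, the microfibril gene Mfap5, was 184 ± 20.4 and 143 ± 30.3 CPM (adjusted p = 0.603).

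Over all 9 lists of skin and epithelium, 34 of 101 tested genes were called, 2 higher and 32 lower, beside 29.0% called over all genes tested, 10.3% higher and 18.7% lower. Of the 12 tested genes that passed the filter through the wild-type libraries alone 10 were among the 32 lower calls, and over all genes 1028 of 1061 such genes were among the 3329 lower calls. Of the 192 genes, 40 were at 0 in every library, and 81 of the 152 with a count (53.3%) were higher in both wild-type libraries 2 and 3 than in any other library, beside 39.1% of all genes with a count. With the receptor level as a covariate 3 of 126 were called, all lower, beside 473 of 22146 genes in all. The median log2 fold change of the lists was then 0.27 in place of -0.97. That covariate is confounded with genotype, since the receptor level did not overlap between the groups. Without wild-type libraries 2 and 3 the count was 6 of 102, 3 in each direction, beside 825 of 18530 genes in all, with a median of -0.03. The calls thus became fewer over all genes as well as in these lists. Limma voom called 2 of 101 and DESeq2 56 of 130. Leaving out any single library also changed it by more than 1.5 times, from 17 without wild-type library 3 to 75 without wild-type library 1. Whether the receptor and skin signals of wild-type libraries 2 and 3 share a source was not tested. Among the joint tissues, 1 of 7 tested tendon genes fell and 1 of 8 muscle genes, Myh4, rose. The tendon call was lost without any single library other than wild-type library 1, in limma voom and with the covariate. The muscle count was 6 without wild-type library 1 and 4 in DESeq2. Of 8 bone genes 2 were called (Bglap higher, Phex lower). The bone count was 3 without wild-type library 1, and 0 without wild-type library 3 or Tnc-/- library 2 or 4. Of 6 cartilage genes 0 were called by edgeR, with 1 at an unadjusted p under 0.05, and DESeq2 called 1, lower.

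**Figure D4:**
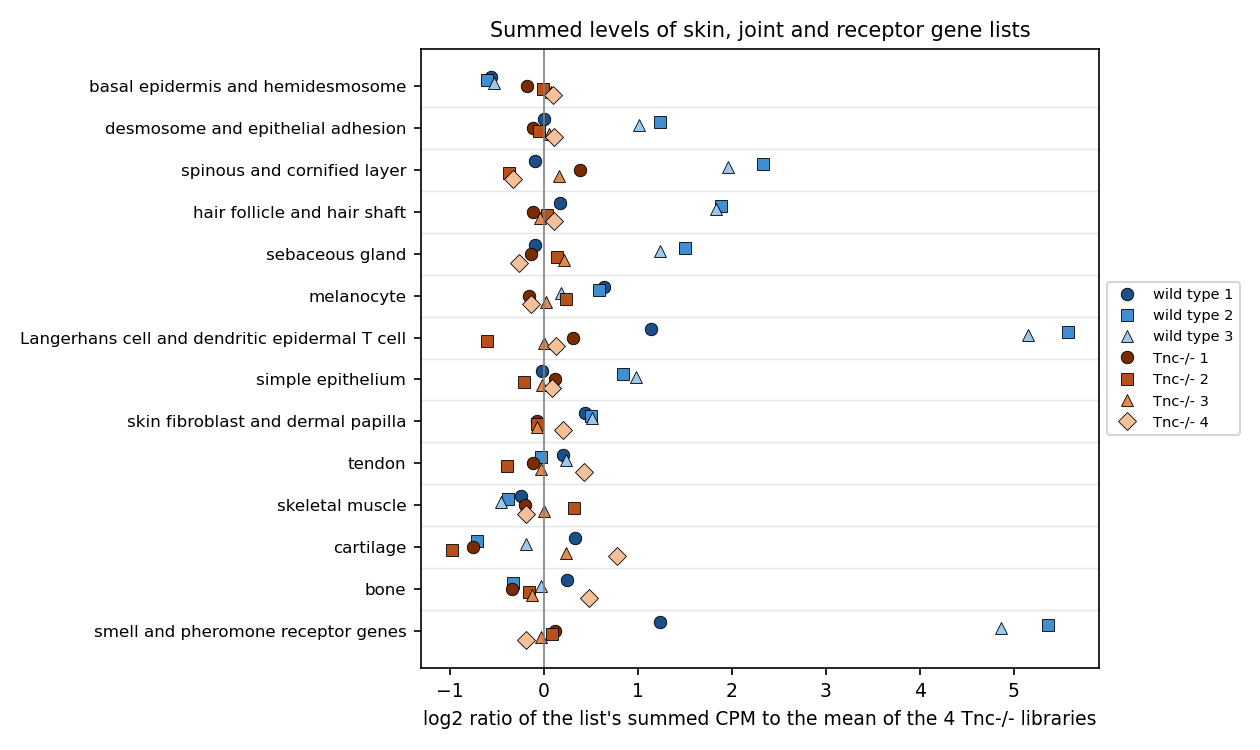
Log2 ratio of the summed CPM of each gene list in each library to the mean of the 4 Tnc-/- libraries (x axis), with 1 row per list and 1 point per library coloured by genotype. Wild-type libraries 2 and 3 lie to the right for the receptor genes and for several skin lists, while the wild-type points for tendon, cartilage and bone genes lie on both sides of 0.

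Of 54 keratin genes in the files, 19 were at 0 in all 7 libraries and 27 at 3 counts or fewer in every library. The summed level was 15.5 CPM in wild-type library 1, 61.9 and 62.3 CPM in the other 2, and 11.6 to 14.2 CPM in Tnc-/-. Some of the keratins highest in wild-type libraries 2 and 3 are named here after their values were seen. Krt74 had 23, 105 and 110 counts in wild type and 0 in every Tnc-/- library. Krt25 had 0, 77 and 111 against 0, 0, 4 and 1, and Krt20 had 0, 76 and 96 against 6, 0, 0 and 1. Krt2, a keratin of the upper epidermis, had 0, 75 and 52 against 0 throughout. Other keratins of the hair follicle's inner root sheath differed among themselves. Krt27 had 0, 40 and 55 against 2, 0, 0 and 0, Krt28 had 0, 51 and 17 against 7, 0, 2 and 0, and Krt26, Krt71 and Krt72 were at 0 in all 7 libraries. Wild-type libraries 2 and 3 thus had 0 counts of Krt5, Krt14, Krt1 and Krt15 beside these counts.

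The 9 genes did not share one profile over the 7 libraries. The root mean square difference of each gene's centred log2(CPM + 1) from the mean of the 9 ran up to 1.44 for Krtdap, and was 0.378 for Krt15, which is at 0 in every library and so has a flat profile. Among 14951 other genes averaging 1 CPM or more, the 10 most like that mean profile differed from it by 0.051 to 0.077. They were Hexdc, Zfp532, Yeats2, Tiam2, Atg5, Kif3a, Naf1, Pcnx4, Ext1 and Fbxw11, none of which is in the skin lists. Hexdc, the closest, had 14.8, 22.7 and 22.2 CPM in the 3 wild-type libraries and 11.2 to 13.4 CPM in Tnc-/-, which shows the mean profile to be a modest excess in wild-type libraries 2 and 3.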

How the data were processed

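Whole shoulder joints of 7 mice were sequenced, and the labels' genotype set the groups. Per the labels' protocols, poly(A) RNA was captured. Per the submitters' processing notes, the tools were FastQC 0.11.9, HISAT2 2.2.1, HTSeq 2.0.2 and DESeq2 1.38.3, with assembly GRCm39; the annotation and strand setting were not given in the sources used here. The authors deposited raw counts per gene, 1 file per library. Rows that name no gene, present in the Tnc-/- files alone (30.1 to 32.7% of listed reads), were left out of totals and tests. Levels are CPM, scaled to each library's total over genes (13.5 to 28.2 M counts), and per-kilobase values use exon length in GENCODE M21 (GRCm38), which held 91.5% of the identifiers.

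Genotypes were compared over the 56854 identifiers with edgeR 4.0.16 in R 4.3.3 (filterByExpr, TMM, robust quasi-likelihood F test, Benjamini-Hochberg adjustment, threshold 0.05), tested first on simulated data. Standard errors are the log2 fold change over the root of its F statistic. Fold changes are Tnc-/- over wild type. The 19 alternatives used DESeq2 1.42.0, limma 3.58.1 voom, other scalings and filters, the receptor level as a covariate, the replicate number as a block, and left-out libraries. Intervals and floors cover counting error only, and p-values measure the spread between the deposited libraries. The 9 genes, the 13 lists and the alternatives were chosen with earlier results of these data known. All 9 genes are named, with up to 4 genes of highest mean CPM per list and the 10 genes of most similar profile. The aligned sequence of the type II keratins is not reported here.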

Additional observations from a re-analysis of the deposited data

Results flagged for a closer look

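In the 25 values screened within the Tnc-/- group, 3 had 1 library far from the other 3 libraries; chance flags about 1 in 20. Krt10 was 2.235 CPM in Tnc-/- library 1 against 2.58 to 2.61 CPM in the others, a gap of 0.915 of the group's range. Krtdap was 0.106 CPM in Tnc-/- library 1, on 3 counts, against 0 in the others, where any single count would stand apart. The skin fibroblast and dermal papilla genes summed to 389 CPM in Tnc-/- library 4 against 319.5 to 320.8 CPM in the others. Outside the gene counts, reads lying over several genes made up 11.5, 11.6, 11.4 and 11.6% of the listed reads of Tnc-/- libraries 1 to 4, and the wild-type files list no such row.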

How the results depend on the processing

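Dsg3, whose direction is fixed by 0 counts in every Tnc-/- library, was called in all 18 alternatives that could test it. Krt10 and Sfn kept their direction in 18 and 19 and passed in 2 each. Trp63 turned to 0.17 with the receptor level as a covariate and kept its direction but lost its call in 8. The receptor level did not overlap between the genotypes, so the covariate fit cannot separate it from genotype. The count of genes called in all was 5159 in edgeR. Counted anew in each fit, it was 9423 in DESeq2, 1943 in DESeq2 with Bonferroni adjustment, 973 in limma voom (707 higher, 266 lower), 473 in the covariate fit, 825 without wild-type libraries 2 and 3, and 2229 to 14113 with 1 library left out. Of the 9 genes, 2 were called, and DESeq2 called 5, limma voom 1, the filter of at least 10 counts in every sample 1, the covariate fit 1, the fit without wild-type libraries 2 and 3 1, and fits leaving out 1 library 1 to 5. The count of skin and epithelium genes called was 34, and in refits it was 3 with the covariate, 2 in limma voom, 56 in DESeq2 and 17 to 75 with 1 library left out. The summed level differed by -31.6 CPM (Tnc-/- minus wild type), and by -46.9 to -22.1 CPM with 1 library left out. In fits without wild-type libraries 2 and 3 the remaining wild-type library is assumed to vary like Tnc-/-. With the replicate number as a block 3315 genes and 2 of the 9 were called, but same-numbered libraries share only a number: their deviations correlated at 0.0075, 0.12 and -0.00029, and only wild-type library 2 correlated best with its own number. Depth limits Krt5, Krt14, Krt1 and Krt15, at 0 to 13 counts per library, where small differences were not detectable.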

Other observations

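Of 5042 protein-coding genes with a count of 0 in all 4 Tnc-/- libraries, 447 (8.87%) had a count in wild-type library 1, 1222 (24.2%) in wild-type library 2 and 1158 (23.0%) in wild-type library 3. Among those with a count, the median was 5, 29.5 and 23 counts. Dsg3, with 29, 149 and 111 counts, was matched or exceeded by 13, 119 and 112 genes of this set in the 3 libraries, itself included.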
